A study of Mus musculus with 2 samples.

Results

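The cytochrome P450 enzymes of the mouse were followed on 2 one-colour Agilent arrays of intestinal epithelial cells. Members were all genes with a non-control probe whose name in the scanner files has the form of a P450 gene (Cyp, a family number, a subfamily letter and a gene number), apart from a pair of genes that the rule leaves out. This gave 93 genes with 118 probes, of 23617 named genes on the arrays. The rule that picks the members uses names and no values.

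Intestinal segments of wild-type male mice were kept for 2 h with cholic acid at 0.5 µM or with vehicle, which was 0.05% DMSO with 0.25% ethanol, and RNA of the epithelial cells was taken. Cholic acid is a primary bile acid made in the liver. The solvent of the cholic acid incubation, the position of the segments along the intestine and the number of mice are not given in the sources used here. The series looks for genes that bile acids may regulate through PPARα, a nuclear receptor that controls fatty acid oxidation genes. There was 1 array for cholic acid and 1 for vehicle, so none of the differences has a replicate check or a test, and genes are counted by the size of the difference alone.

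P450 enzymes are haem proteins that insert an oxygen atom into their substrate. They take electrons from NADPH, through P450 reductase in the endoplasmic reticulum and through ferredoxin in mitochondria. Families 1 to 3 act mostly on drugs, toxins and dietary compounds and on some steroids and fatty acids, family 4 hydroxylates fatty acids and eicosanoids, and the families with higher numbers make or break down steroids, bile acids, vitamin D and retinoic acid. In the small intestine the villus enterocytes carry most of the P450 enzymes that meet swallowed compounds, and the nuclear receptors PXR and CAR are known to induce members of the 2b, 2c and 3a subfamilies there.

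A signal below is Agilent's processed signal, an intensity without a unit. A spot is called above background here where Agilent's stricter flag, well above background, is set. Differences are log2 values, cholic acid minus vehicle, after each array was scaled on the 75th percentile of its probes that passed this flag on both arrays. That percentile was 741 on the cholic acid array and 1060 on the vehicle array, so a gene at the same scaled level on both arrays had a lower signal on the cholic acid array. Signals of different genes come from different probes and are not set against each other. A gene is called measured where at least 1 of its probes was above background on both arrays.

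P450 genes were mostly lower on the cholic acid array. Of the 93 members, 46 were measured, where 54.2% of all named genes were. Of these 46 genes, 0 were at least 2-fold higher on the cholic acid array, against 6.51% of the 12804 genes measured in all. At least 2-fold lower were 19 (41.3%), against 2.05% of all genes, and 36 (78.3%) lay below 0, against 42.7% of all genes. The median difference of the 46 genes was -0.80, and that of all genes was 0.08. All 19 belong to families 2, 3 and 4 except Cyp27a1: family 2 had 12 of its 25 measured genes at least 2-fold lower, family 3 had 4 of 6, family 4 had 2 of 10, and the 5 measured genes of family 7 and above had 1. The summed scaled signal of the 46 genes was 135 on the cholic acid array and 236 on the vehicle array. Bright genes such as Cyp4f14 and Cyp2d26 weigh heavily in that sum, which therefore does not speak for the dimmer ones. With RNA of a whole epithelial preparation, fewer cells of a type and less RNA per cell cannot be told apart.

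**Figure D1:**
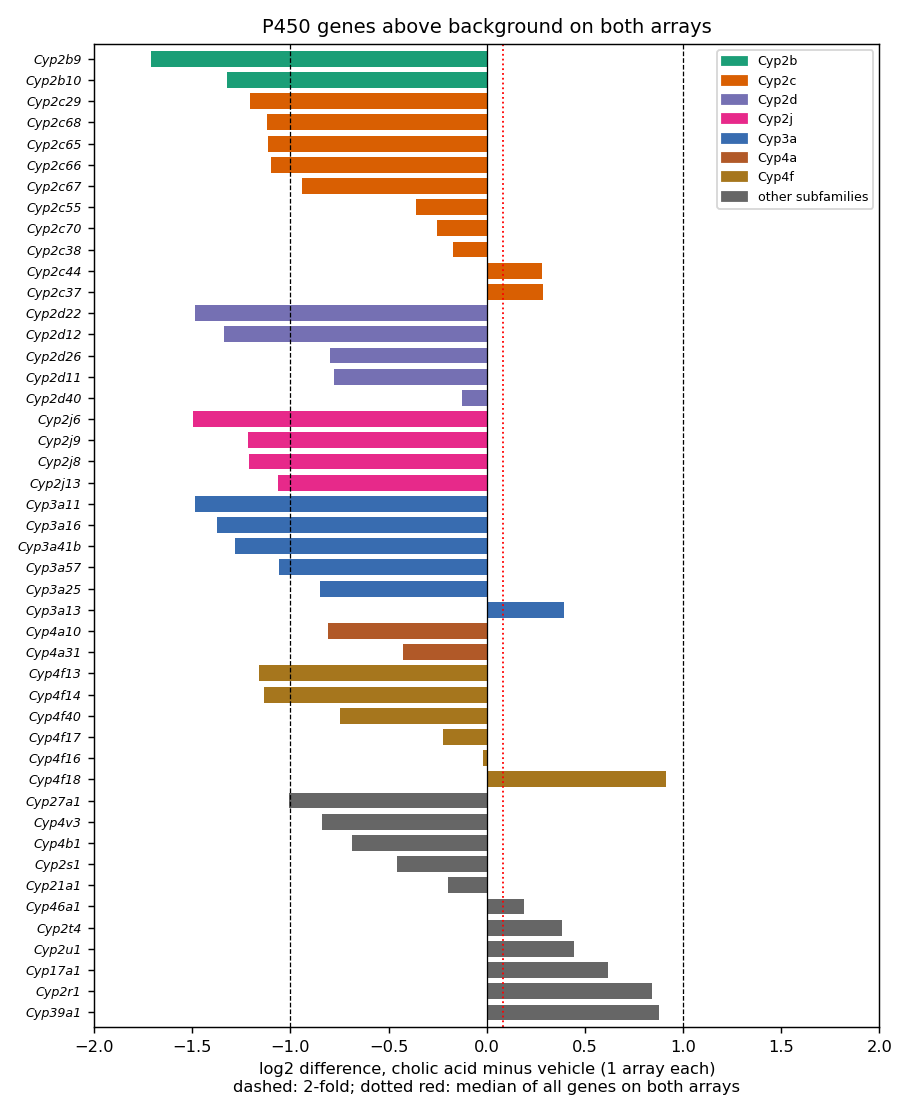
Bars show the log2 difference, cholic acid minus vehicle (1 array each), of the 46 P450 genes measured on both arrays, grouped and coloured by subfamily. Dashed lines mark 2-fold, which 19 genes passed on the lower side and 0 on the higher side, and the dotted red line is the median of all 12804 measured genes, 0.08.

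Among both the brighter and the dimmer measured members, the median difference stood below that of all genes on the same side of the members' median signal. The 23 measured members with the higher mean signals had a median of -0.94, with 11 at least 2-fold lower. All 4779 genes at or above the members' median signal had a median difference of -0.07, with 114 at least 2-fold lower. The other 23 members had a median of -0.36, with 8 at least 2-fold lower. All 8025 genes below the members' median signal had a median difference of 0.20, with 149 at least 2-fold lower. These sets include the members and were not matched to them more closely on signal. The GC content of the members' measured probes, with a median of 44.2%, was close to that of all measured probes, 43.3%.

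**Figure D2:**
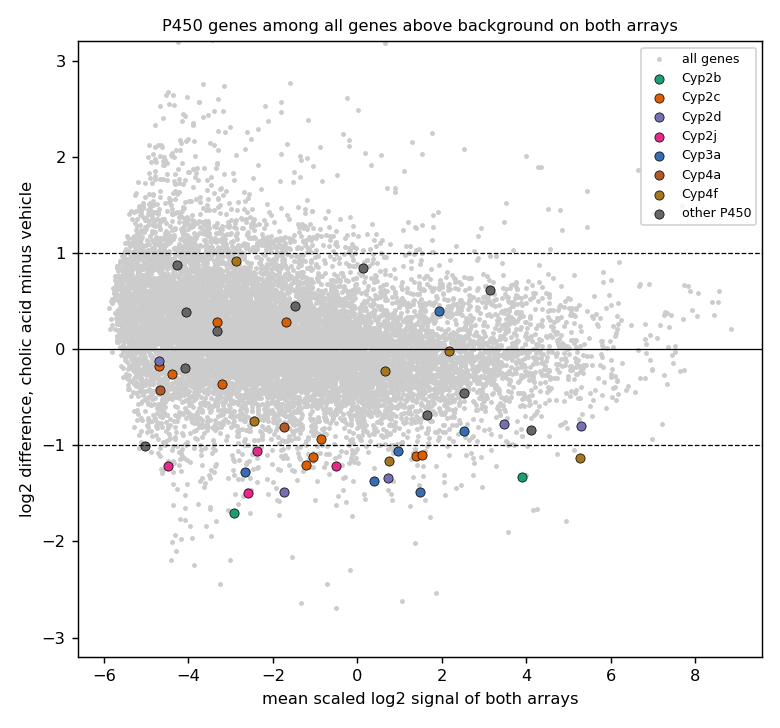
Each point is a gene measured on both arrays, with the mean scaled log2 signal of both arrays on the x axis and the log2 difference, cholic acid minus vehicle, on the y axis. P450 genes are coloured by subfamily over all genes in grey, of which 10 lie outside the y axis, and dashed lines mark 2-fold. The P450 genes past the lower dashed line are spread over most of the x axis.

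Scaling moves the whole set of genes. Among all genes at least 2-fold apart, 76.0% were higher on the cholic acid array. That share was 43.9% with the percentile taken over all probes, 51.3% with quantile normalization or the authors' values, and 2.67% with scaling on a spike-in control probe. The median of all genes moved by -0.12 to -0.23 with the other scalings and by -0.87 with the spike-in. The median of the P450 genes minus that of all genes lay between -0.84 and -0.90 under each of these scalings and was -0.88 as reported. The percentile over all probes, median centring and the spike-in shift all genes by 1 constant, so they leave that gap as it is by construction. With the spike-in, 44 of the 46 P450 genes lay below 0, so a value above 0 given for a gene holds for the scaling used here.

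Cyp3a enzymes metabolise a large share of drugs and hydroxylate steroids and bile acids. All 8 Cyp3a genes on the arrays gave a signal above background on at least 1 array. Of the 6 that were measured, 4 were at least 2-fold lower on the cholic acid array, with a subfamily median of -1.17. Cyp3a11, the mouse counterpart of human CYP3A4 and a standard target of PXR, was read by a pair of probes. One had a signal of 420 on the cholic acid array and 2050 on the vehicle array, and the other had 3690 (cholic acid) and 12100 (vehicle). The probe differences of -1.77 and -1.20 went the same way and gave -1.48, or 2.80-fold lower, where the robust SD of the 1000 genes nearest in signal was 0.37. Cyp3a16, best known from fetal liver, had signals of 601 on the cholic acid array and 2230 on the vehicle array and was 2.59-fold lower. Cyp3a41b, whose protein is known from female liver, had 75.1 (cholic acid) and 261 (vehicle) and was 2.43-fold lower, with a difference of -1.28 as reported and -0.75 after normexp background correction. Cyp3a57 had 998 (cholic acid) and 2970 (vehicle) and was 2.08-fold lower. Cyp3a25, a steroid hydroxylase of liver and small intestine, had 3190 (cholic acid) and 8210 (vehicle), a difference of -0.85 that is short of 2-fold.

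Cyp3a13, which is expressed along the intestine, was the only measured Cyp3a gene above 0, and its probes disagreed. One probe had signals of 7220 on the cholic acid array and 11500 on the vehicle array, a difference of -0.16, and the other had 1460 (cholic acid) and 1090 (vehicle), a difference of 0.94. The mean was 0.39. Cyp3a13 also lies apart on the chromosome: on mm9, the build of the array files, its probes span chr5:138334265-138335471, whereas the probes of the other 7 genes lie together at chr5:146151322-146924544. In that cluster 5 genes were measured, all below 0, with a median of -1.28 and 4 at least 2-fold lower. The other 2 genes there were above background with vehicle alone. Cyp3a44 had signals of 11.2 on the cholic acid array and 52.5 on the vehicle array, and Cyp3a59 had 3.59 (cholic acid) and 33 (vehicle). Against the lowest signal called above background on the cholic acid array, these make Cyp3a44 at least 3.27-fold and Cyp3a59 at least 2.06-fold lower, the second from 1 of its 2 probes. The other Cyp3a59 probe went the other way, with 12.6 (cholic acid) and 8.77 (vehicle), and was not above background on either array.

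The promoters of Cyp3a11 and Cyp3a13 are printed because these members of 1 subfamily lie in separate places and had different mean differences, although 1 probe of Cyp3a13 was below 0 like those of Cyp3a11, and those of Cyp2c65 and Cyp2c66 because these neighbours had nearly the same difference. Each is the RefSeq window on GRCm38.p6 from 250 bases before to 50 bases after the gene start, read 5′ to 3′ along the gene. Capitals mark CAAAGTCC, a run of letters within the consensus of the receptor HNF4A, chosen after the sequences were seen. The windows are chr5:145879805-145880104 on the minus strand (Cyp3a11), chr5:137921570-137921869 on the minus strand (Cyp3a13), chr19:39060756-39061055 on the plus strand (Cyp2c65) and chr19:39113648-39113947 on the plus strand (Cyp2c66).
Cyp3a11: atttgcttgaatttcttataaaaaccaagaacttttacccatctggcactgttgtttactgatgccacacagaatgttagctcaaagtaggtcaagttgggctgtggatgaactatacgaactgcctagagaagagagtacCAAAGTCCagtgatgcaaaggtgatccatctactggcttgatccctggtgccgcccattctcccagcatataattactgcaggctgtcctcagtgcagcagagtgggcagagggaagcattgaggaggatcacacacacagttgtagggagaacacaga
Cyp3a13: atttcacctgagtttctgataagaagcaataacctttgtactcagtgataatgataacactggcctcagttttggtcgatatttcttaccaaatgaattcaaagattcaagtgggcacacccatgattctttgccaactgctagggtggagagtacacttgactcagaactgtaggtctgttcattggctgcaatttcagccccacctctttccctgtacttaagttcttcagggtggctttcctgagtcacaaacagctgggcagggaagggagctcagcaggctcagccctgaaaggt
Cyp2c65: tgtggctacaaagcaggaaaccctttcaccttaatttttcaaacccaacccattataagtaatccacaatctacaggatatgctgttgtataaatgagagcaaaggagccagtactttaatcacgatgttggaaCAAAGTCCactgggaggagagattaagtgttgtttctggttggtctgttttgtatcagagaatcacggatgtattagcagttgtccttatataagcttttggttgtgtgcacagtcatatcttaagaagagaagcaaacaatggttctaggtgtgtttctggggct
Cyp2c66: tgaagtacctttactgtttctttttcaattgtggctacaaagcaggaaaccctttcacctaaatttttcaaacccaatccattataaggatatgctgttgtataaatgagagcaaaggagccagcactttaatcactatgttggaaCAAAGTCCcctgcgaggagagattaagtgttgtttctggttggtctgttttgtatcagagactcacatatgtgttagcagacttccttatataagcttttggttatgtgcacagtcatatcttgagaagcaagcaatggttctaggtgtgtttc

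CAAAGTCC begins 109 bases before the start of Cyp3a11, 116 before that of Cyp2c65 and 104 before that of Cyp2c66, and is not in the Cyp3a13 window. The aligned windows of Cyp2c65 and Cyp2c66 were 77.8% identical and those of Cyp3a11 and Cyp3a13 57.4%. On either strand, the 8 letters occurred in 440 (1.63%) of 27025 promoter windows of all genes and in 11 of the 69 P450 genes that have a window. Among genes at least 2-fold lower they were in the windows of Cyp2c68, Cyp3a16 and Cyp3a41b besides those of Cyp3a11, Cyp2c65 and Cyp2c66, from which the letters were chosen, 6 of 17 in all. That count restates the choice in part. Among the other measured members they were in 3 of 19 windows (Cyp2c67, Cyp2c70 and Cyp4f18). The shorter AGGTCA, a nuclear receptor half-site, occurred in 18.1% of all windows, in 4 of the 17 and in 4 of the 19. Genes of a subfamily arose by duplication and share sequence, so these matches are not independent of each other, and a match is no evidence of binding.

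Cyp2c enzymes epoxygenate and hydroxylate arachidonic acid and metabolise drugs. Of 13 Cyp2c genes 10 were measured, of which 4 were at least 2-fold lower and 8 below 0, with a median of -0.65. Cyp2c65, an enzyme of the intestine that oxygenates arachidonic acid, had signals of 1310 on the cholic acid array and 4060 on the vehicle array (-1.12). Cyp2c66, its neighbour with a similar activity, had 1470 (cholic acid) and 4500 (vehicle), a difference of -1.10. For both genes the robust SD among genes of similar signal was 0.37.

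Cyp2c29, an arachidonic acid epoxygenase that CAR induces in liver, was spotted 10 times on each array. Its spots ran from 181 to 234 with a median of 212 on the cholic acid array, and from 668 to 725 with a median of 689.5 on the vehicle array. The 2 sets of spots, as signals before scaling, did not overlap. The arrays' 75th percentiles, 741 for cholic acid and 1060 for vehicle, differed as well, so the lack of overlap does not measure the scaled difference. After scaling the gene was 2.31-fold lower, a call that normexp background correction left just short of 2-fold. The spread of the spots is one within an array and says nothing of the spread between segments or mice. Over 227 probes with repeated spots the median SD of the difference between single spots was 0.11.

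Cyp2c68 had signals of 243 on the cholic acid array and 756 on the vehicle array and was 2.17-fold lower, or at -0.94 and short of 2-fold after normexp. Cyp2c67 had a pair of probes, one with 236 (cholic acid) and 626 (vehicle) and one with 370 (cholic acid) and 1050 (vehicle), and averaged -0.94. Among genes short of 2-fold, Cyp2c55, which is inducible through CAR and PXR in the mouse, had 71.4 (cholic acid) and 131 (vehicle), a difference of -0.36. Cyp2c70, which makes the muricholic acids of mouse bile, had 32.4 (cholic acid) and 55.3 (vehicle), a difference of -0.25, and Cyp2c38 was at -0.17. Above 0 were Cyp2c37 (0.29) and Cyp2c44 (0.28), an epoxygenase of the kidney whose current symbol is Cyp2c23. The 12 Cyp2c genes with probes at chr19:39116674-40228028 (mm9) included 9 measured ones, of which 8 lay below 0. Cyp2c44 lies outside that cluster on the same chromosome.

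Near-identical genes limit what single probes can separate. Between different members, 9 pairs of probes, which involve 16 probes, matched at 75% or more of at least 30 aligned bases. The probes of Cyp2c67 and Cyp2c68 were identical at 55 of 59 aligned bases, those of Cyp3a41b and Cyp3a44 at 46 of 53, and those of Cyp4a10 and Cyp4a31 at 44 of 47. The stretches below are 30 bases of these probes, 5′ to 3′, with the bases that differ within a pair in capitals, and they are shown because each pair's values may share signal.
Cyp2c67: acAcagtcccagAaattccatctatattcc
Cyp2c68: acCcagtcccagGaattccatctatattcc
Cyp3a41b: cactgagctttctcagtgtctgtAcaGgtt
Cyp3a44: cactgagctttctcagtgtctgtGcaAgtt
Cyp4a10: acGagtttctccatcttccctcctttctgc
Cyp4a31: acAagtttctccatcttccctcctttctgc

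How far a probe of one such gene reads the RNA of the other was not tested. Without the probes that resemble another member's, 40 genes remained, with 16 at least 2-fold lower and a median of -0.79. Probes were compared with other members' probes and not with their whole RNA. A probe that reads a related gene elsewhere would therefore remain. The Cyp3a44 probe was above background with vehicle alone, whereas that of Cyp3a41b was so on both arrays.

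Cyp2b enzymes metabolise barbiturates, other drugs and steroids and are the classical targets of CAR. Both measured Cyp2b genes were at least 2-fold lower. Cyp2b9, a steroid hydroxylase best known from female liver, had signals of 54.3 on the cholic acid array and 254 on the vehicle array. Its difference of -1.71, or 3.27-fold lower, compares with a robust SD of 0.49 among genes of similar signal. It was -0.90 after normexp background correction, short of 2-fold. Cyp2b10, the gene most used as a readout of CAR, had 7030 (cholic acid) and 25200 (vehicle) and was 2.51-fold lower, with a robust SD of 0.39 nearby. The other 3 genes, Cyp2b13, Cyp2b19 and Cyp2b23, were not above background on either array.

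Cyp2j enzymes epoxygenate arachidonic acid and oxidise some drugs. All 4 measured Cyp2j genes were at least 2-fold lower, with a median of -1.21. After normexp background correction only Cyp2j8 (-1.09) was, with Cyp2j6 at -0.80, Cyp2j13 at -0.67 and Cyp2j9 at -0.27. Cyp2j6, the only one with several measured probes, had signals of 196 on the cholic acid array and 792 on the vehicle array with one probe, and 27.6 (cholic acid) and 111 (vehicle) with the other. The probes agreed closely, at -1.50 and -1.49, and gave 2.82-fold lower. Cyp2j8 had 341 (cholic acid) and 1130 (vehicle) and was 2.32-fold lower. Its other probe, with 3.6 (cholic acid) and 3.51 (vehicle), was not above background on either array. Cyp2j9, which is best known from brain, had 21.8 (cholic acid) and 72.5 (vehicle) and was 2.32-fold lower. Cyp2j13 had 98.1 (cholic acid) and 293 (vehicle) with 1 probe and was 2.09-fold lower. Further Cyp2j13 probes, with 3.05 (cholic acid) and 5.27 (vehicle) and with 3.32 (cholic acid) and 5.41 (vehicle), were not above background on either array. All 6 Cyp2j genes have their probes at chr4:95709356-96294231 (mm9), and Cyp2j5 and Cyp2j11 were not above background on either array.

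Cyp2d enzymes include the mouse counterparts of human CYP2D6, which oxidises many drugs with a basic nitrogen. Of 10 Cyp2d genes 5 were measured, all below 0, with 2 at least 2-fold lower and a median of -0.80. Cyp2d22, held to be close in function to CYP2D6, had signals of 132 on the cholic acid array and 529 on the vehicle array and was 2.80-fold lower. Cyp2d12 had 768 (cholic acid) and 2780 (vehicle) and was 2.53-fold lower. Short of 2-fold were Cyp2d26, with 22100 (cholic acid) and 54900 (vehicle) and a difference of -0.80, and Cyp2d11, with 6330 (cholic acid) and 15500 (vehicle) and a difference of -0.78. Cyp2d40 was at -0.13. Cyp2d13 was above background with vehicle alone, with 3.05 (cholic acid) and 49.2 (vehicle), and was at least 3.07-fold lower. Cyp2d10 went the other way from dim signals of 15.1 (cholic acid) and 8.96 (vehicle), at least 1.48-fold higher.

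Cyp4a and Cyp4f enzymes hydroxylate the far end of fatty acids and eicosanoids. Cyp4a10 and Cyp4a14 are standard targets of PPARα, and Cyp4a14 was not above background on either array. Only Cyp4a10 and Cyp4a31 of 8 Cyp4a genes were measured, and their differences of -0.81 and -0.42 fell short of 2-fold. Cyp4a10 rests on probes that disagree in size. The probe with signals of 1020 on the cholic acid array and 3390 on the vehicle array was at -1.22, while the one that resembles the Cyp4a31 probe, with 27.6 (cholic acid) and 52.1 (vehicle), was at -0.40. With the first probe alone, Cyp4a10 was at least 2-fold lower. Cyp4a31 had 24.9 (cholic acid) and 47.8 (vehicle) on the resembling probe.

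Of 9 Cyp4f genes 6 were measured, with 2 at least 2-fold lower, 5 below 0 and a median of -0.48. Cyp4f14, which hydroxylates leukotriene B4 and the side chains of vitamins E and K, had signals of 19300 on the cholic acid array and 60700 on the vehicle array and was 2.20-fold lower. Cyp4f13 had 835 (cholic acid) and 2670 (vehicle) and was 2.24-fold lower. Cyp4f15 was above background with vehicle alone, with 3.49 (cholic acid) and 56.9 (vehicle), and was at least 3.55-fold lower. Cyp4f40 (-0.75), Cyp4f17 (-0.22) and Cyp4f16 (-0.02) were short of 2-fold, the last with 3330 (cholic acid) and 4830 (vehicle).

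Cyp4f18, the leukotriene B4 hydroxylase of mouse neutrophils and other leukocytes, had the highest difference of the 46 measured members. It had signals of 146 and 133 with its 2 probes on the cholic acid array, against 121 and 92.8 on the vehicle array, differences of 0.79 and 1.04. These probes overlap by 59 bases and are not independent readings. Most measured markers of immune cells also lay above 0. Of all genes 42.7% lay below 0 and 6.51% were at least 2-fold higher. All 7 T cell markers were measured and lay above 0, with 3 at least 2-fold higher, a median of 0.87 and a summed scaled signal of 18.2 on the cholic acid array against 9.98 on the vehicle array. The 5 measured markers of B and plasma cells all lay above 0, 4 of them at least 2-fold higher, and Ms4a1 was above background with cholic acid alone. The measured one short of 2-fold, Igj, was at 0.02. The summed signal of the 5 was 4.33 on the cholic acid array and 3.19 on the vehicle array. Of 5 myeloid markers 4 were measured, 3 above 0 and 1 at least 2-fold higher, with a summed signal of 2.06 on the cholic acid array and 1.68 on the vehicle array. Those short of 2-fold were Itgam (-0.11), Csf1r (0.27) and Cd68 (0.40). The part of immune cells in the result was not tested.

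**Figure D3:**
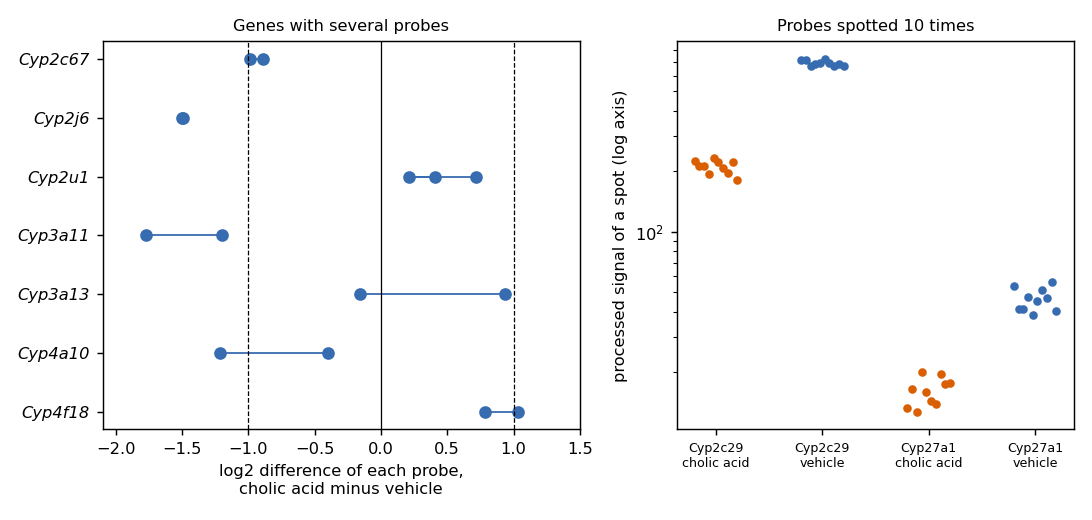
Left, the log2 difference of each measured probe for the 7 P450 genes with several measured probes, joined by a line per gene, with dashed lines at 2-fold. Cyp3a13 has probes on both sides of 0, and the probes of Cyp2j6 coincide. Right, the processed signal before scaling (log axis) of the 10 spots per array of the Cyp2c29 and Cyp27a1 probes, with cholic acid in orange and vehicle in blue. The arrays' spots do not overlap for either gene, but the arrays also differ in level before scaling.

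Outside these subfamilies 31 genes were on the arrays and 11 were measured, of which 1 was at least 2-fold lower, with a median of 0.19. Among those of families 2 and 4, Cyp4v3, a fatty acid hydroxylase whose human counterpart CYP4V2 is linked to a corneal and retinal dystrophy, had signals of 9650 on the cholic acid array and 24700 on the vehicle array (-0.84). Cyp4b1, which activates some lung toxins, had 1830 (cholic acid) and 4210 (vehicle), a difference of -0.69. Cyp2s1, an epithelial P450 that retinoic acid and AHR ligands induce, had 3620 (cholic acid) and 7120 (vehicle), a difference of -0.46. Cyp2u1, a hydroxylase of long-chain fatty acids, was above 0 with each of 3 probes, at 0.21, 0.40 and 0.72, the last with 10200 (cholic acid) and 8880 (vehicle). Cyp2r1, the main vitamin D hydroxylase of the liver, had 1090 (cholic acid) and 870 (vehicle), a difference of 0.84 on 1 probe. Its other probe was not above background on either array. Cyp2t4 was at 0.38.

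Among enzymes of bile acid and steroid synthesis, Cyp27a1, the mitochondrial sterol hydroxylase of the alternative bile acid pathway, was at the edge of both limits. Its 10 spots ran from 12.7 to 20.1 with a median of 16.2 on the cholic acid array, where 6 of 10 were above background. On the vehicle array they ran from 38.4 to 56.2 with a median of 46.0, and 10 of 10 were above background. The difference was -1.01 (2.01-fold), and it was -0.02 after normexp background correction, so the call rests on how the dim signal is corrected. Cyp39a1, an oxysterol hydroxylase, had 52.2 (cholic acid) and 40.6 (vehicle), a difference of 0.88. Cyp17a1, the hydroxylase and lyase of androgen synthesis, had 8170 (cholic acid) and 7630 (vehicle), a difference of 0.62. Cyp46a1, the cholesterol hydroxylase of brain, was at 0.19, and Cyp21a1, an adrenal steroid hydroxylase, at -0.20. Cyp11a1, which cleaves the cholesterol side chain, was above background with cholic acid alone, with 22.2 (cholic acid) and 3.28 (vehicle), and was at least 2.18-fold higher. It was the only member above such a bound on the higher side.

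In all, 7 members were above background with vehicle alone, against 2.49% of all named genes, and 2 with cholic acid alone, against 3.12%. Among the 1326 genes seen on 1 array alone, 8.52% had a bound of at least 2-fold lower and 27.2% one of at least 2-fold higher. Of the 9 such members, 5 were at least 2-fold lower by their bound and 1 at least 2-fold higher. The fifth of the lower ones was Cyp2c54, with 13.0 (cholic acid) and 50.9 (vehicle) on 1 of its 3 probes and at least 2.74-fold lower. A Cyp2c54 probe that overlaps this one by 42 bases had 3.09 (cholic acid) and 3.34 (vehicle). The remaining probe had 2.77 (cholic acid) and 2.97 (vehicle). Neither was above background on either array, so the bound rests on 1 probe that its overlapping neighbour does not bear out. Cyp2c39 was at least 1.38-fold lower, and the retinoic acid hydroxylase Cyp26b1, with 16.8 (cholic acid) and 23.9 (vehicle), allowed no fold. By the less strict flag for a positive and significant signal, only Cyp11a1, Cyp2d13 and Cyp4f15 were above background on 1 array alone.

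The remaining 38 members were not above background on either array, and the signals of their 42 probes ran from 2.71 to 12.7 with cholic acid and from 2.89 to 13.8 with vehicle. They include all 3 genes of family 1, among them Cyp1a1 and Cyp1b1, which the dioxin receptor AHR induces. They include Cyp7a1, the rate-limiting enzyme of bile acid synthesis in liver, with Cyp7b1 and Cyp8b1, which act further along that pathway. Others were the ethanol-oxidising Cyp2e1, the corticosteroid enzyme Cyp11b1, the aromatase Cyp19a1, the retinoic acid hydroxylase Cyp26a1 and the orphan Cyp20a1. Of these genes the arrays give an upper bound and no difference.

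**Figure D4:**
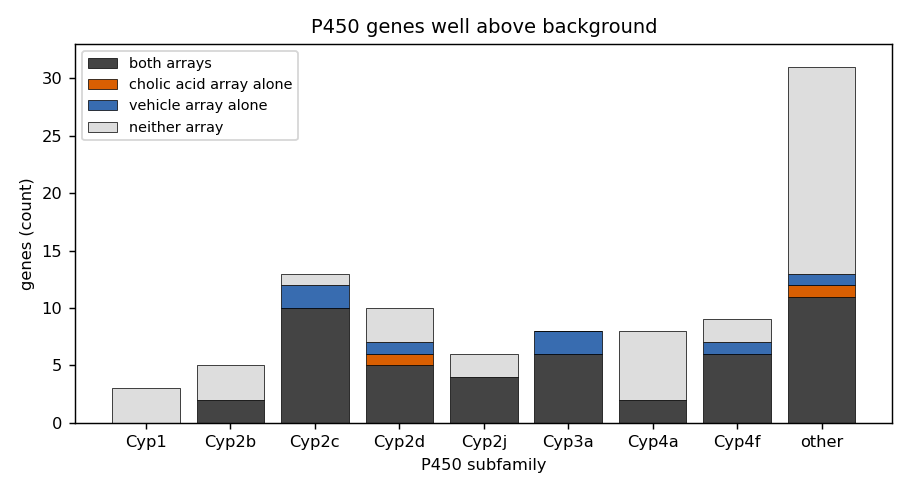
Stacked bars count the 93 P450 genes of each subfamily by the array on which they were above background. All 8 Cyp3a genes were seen on at least 1 array, whereas the 3 Cyp1 genes were seen on neither.

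All 15 genes of electron donors and haem supply were measured, with a median of -0.01. Of these, 0 were at least 2-fold higher, where 6.51% of all genes were, and 0 at least 2-fold lower, where 2.05% were, so the counts of this short list lie near the shares of all genes. Por, the reductase that feeds the microsomal P450 enzymes, had signals of 4910 on the cholic acid array and 8200 on the vehicle array, a difference of -0.22. Alas1, the first enzyme of haem synthesis, was at 0.21, Cyb5a, a cytochrome that passes electrons to some of them, at -0.14, and Cyb5r3, its reductase, at -0.74. Pgrmc1, a haem protein that binds P450 enzymes, was at -0.62.

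Of 23 receptors and other factors that regulate P450 genes, 21 were measured, with a median of -0.16 against 0.08 for all genes. Below 0 lay 14 of the 21, against 42.7% of all genes. At least 2-fold apart were 0, against 6.51% higher and 2.05% lower of all genes, which for a list of this length is also near those shares. Nr1i2, which encodes PXR, had signals of 1230 on the cholic acid array and 2600 on the vehicle array, a difference of -0.56. Nr1i3, which encodes CAR, was at 0.25, the vitamin D receptor gene Vdr at -0.82 and Ppara at -0.22. Hnf4a had 23100 (cholic acid) and 37200 (vehicle), a difference of -0.17, and Nr1h4, which encodes the bile acid receptor FXR, was at -0.11. Nr0b2 and Rarb were not above background on either array. Of 6 AHR response genes outside the P450 family, 5 were on the arrays and 4 were measured, with Tiparp at -0.89 and Nqo1 at 0.17. At least 2-fold apart were 0 of the 4, which for so short a list is again near the shares of all genes. Of 3 P450 genes that the name rule does not match, Cyp51, the lanosterol demethylase of cholesterol synthesis, was at 0.12 and the prostacyclin synthase gene Ptgis at 0.43, and the thromboxane synthase gene Tbxas1 was not above background.

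The labelled cell type was checked against its markers. All 8 enterocyte markers were measured. Vil1 had signals of 74100 on the cholic acid array and 107000 on the vehicle array, a scaled difference of -0.01. Of the 8, 6 lay below 0, with a median of -0.33 over the 8. Besides Vil1 these were Sis (-0.68), Epcam (-0.64), Alpi (-0.46), Lct (-0.44) and Krt20 (-0.22). The summed scaled signal of the 8 was 1184 on the cholic acid array and 1046 on the vehicle array. Above 0 were Fabp2 (0.61), with signals of 346000 (cholic acid) and 325000 (vehicle), and Anpep (0.40), with 209000 (cholic acid) and 226000 (vehicle). These bright signals weigh heavily in the sum, which therefore does not speak for the other 6. Hepatocyte markers were nearly absent: Alb, F2, Ahsg and Fgb were not above background on either array, and only Serpina1a was measured, so the P450 signals were not accompanied by those of liver. Of 5 smooth muscle markers 3 were measured, all above 0 and 1 at least 2-fold higher, with a summed signal of 0.934 on the cholic acid array and 0.75 on the vehicle array, and Des and Myh11 were not above background.

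Some markers of position along the small intestine differed between the arrays. All 4 markers of the distal small intestine were above 0, with a median of 1.38. Fabp6, the ileal bile acid binding protein, had signals of 1320 on the cholic acid array and 47.3 on the vehicle array, and Slc10a2, the ileal bile acid carrier, was also at least 2-fold higher, whereas Slc51a (0.26) and Slc51b (0.51), subunits of the basolateral bile acid carrier, were not. The summed scaled signal of the 4 was 31.1 on the cholic acid array and 23.4 on the vehicle array. Of 4 proximal markers 3 were measured, and Onecut2, with 294 (cholic acid) and 2070 (vehicle), was at least 2-fold lower, while Gata4 (-0.12) and Slc40a1 (0.02) lay near 0. The median of the 3 was -0.12, and the summed signal of the list was 1.68 on the cholic acid array and 3.34 on the vehicle array. The part of these differences in the P450 result was not tested, and with 1 array per group the incubation and the origin of a segment cannot be told apart.

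**Figure D5:**
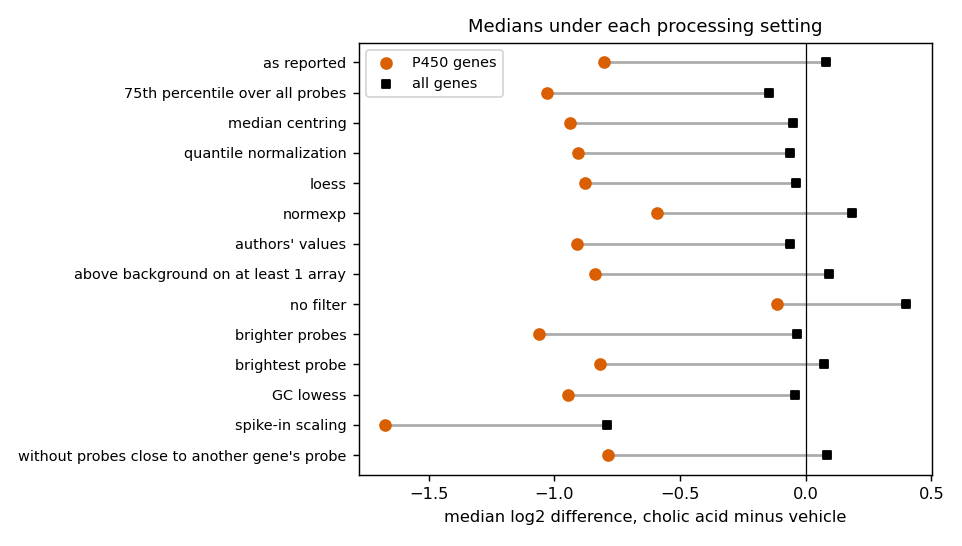
Points show the median log2 difference, cholic acid minus vehicle, of the measured P450 genes (orange circles) and of all measured genes (black squares) under each processing setting, joined by a line. The P450 median lies left of that of all genes in every setting, with a gap of -0.51 without a filter on dim probes and -1.03 with brighter probes alone.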

How the data were processed

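RNA of epithelial cells from cholic acid and vehicle incubations was labelled with Cy3 and hybridised to 1 array each, per the labels. Per the file headers, the deposited scanner files come from Agilent Feature Extraction 10.7.1.1 and place probes on mm9, whereas the submitters' processing notes list version 9.5.1.1. The signal used is a spot intensity from which background and a spatial trend were removed, per the file headers. The authors also deposited processed intensities, which were quantile-normalized on a linear scale as judged from their values and correlated with the scanner signals at r = 0.99984 (cholic acid) and 0.99987 (vehicle) on the log2 scale across probes.

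Control spots were not used, and non-uniform and population outlier spots were left out, 119 of the other spots on the cholic acid array and 124 on the vehicle array. On each array 0 spots were saturated. Spots of 1 probe were averaged as log2 signals and scaled on the 75th percentile of the 22613 probes (40.61% of 55681) well above background on both arrays, since under 50% of probes were. A gene is the mean of its probes above background on both. A gene above background on 1 array alone has a bound: its brighter signal is set against the dim signal, or, where that is smaller, against the dim array's lowest signal above background (11.2 for cholic acid and 14.6 for vehicle). With 1 array per group no p-value or standard error was computed, and the number of arrays limits the precision. The yardstick of a gene is the robust SD of the log2 differences among 1000 genes of the closest mean signal. Names came from a RefSeq table of GRCm38.p6, which matched 114 of the 118 member probes by accession, and coordinates of probes are those of the files. Members with another current symbol are Cyp2c44 (Cyp2c23), Cyp4a29-ps (Cyp4a29) and Cyp4a30b-ps (Cyp4a30b).

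Members with values in the text are those at least 2-fold apart or with such a bound, the 3 with the highest signals in each subfamily and 31 taken whatever their values. Other members are examples. The members and all gene lists were chosen with earlier results of these data known. Alternatives were 4 other scalings, normexp background correction with an offset of 50 (limma 3.58.1 in R 4.3.3), the authors' values, the brightest probe per gene, 3 other filters on dim probes, and limits of 1.5-fold and 3-fold. A GC lowess, spike-in scaling and the removal of similar probes were added after the data were seen. The procedure was tested on simulated data. A marker gene of the lists is not reported here.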

Additional observations from a re-analysis of the deposited data

How the results depend on the processing

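The median of the P450 genes, -0.80 as reported, was -1.03 with the percentile over all probes, -0.94 with median centring, -0.94 with the GC lowess, -0.91 with the authors' values, -1.67 with spike-in scaling, -0.59 with normexp, -1.06 with brighter probes alone and -0.11 with no filter, where 93 genes entered. It lay below the median of all genes in each of these. The count of genes at least 2-fold lower, 19 as reported, was 11 with normexp, 34 with spike-in scaling and 16 to 25 under the other alternatives with that limit. With spike-in scaling 73.9% of the P450 genes and 31.8% of all genes were at least 2-fold lower. The count of genes at least 2-fold higher, 0 as reported, was 2 with probes above background on at least 1 array and 10 with no filter. At a limit of 1.5-fold, 27 P450 genes were lower and 4 higher, where 984 and 2269 of all 12804 genes were. At a limit of 3-fold, 1 P450 gene was lower and 0 were higher, where 42 and 176 of all genes were. With normexp 23.9% of the P450 genes and 0.812% of all genes were at least 2-fold lower, and Cyp27a1 (-0.02), Cyp2j9 (-0.27), Cyp3a41b (-0.75), Cyp2j6 (-0.80), Cyp2b9 (-0.90), Cyp2c68 (-0.94), Cyp2c29 and Cyp2j13 fell short of 2-fold. The normexp setting adds its offset of 50 to each signal on both arrays, so before scaling it shrinks the ratio of a dim gene by construction. How far the offset accounts for each of these drops was not tested. With no filter Cyp2j13 and Cyp2j8 (-0.33) fell short, because probes that were not above background entered their means. Cyp4a10 passed the limit with its brighter probe alone (-1.22). No called gene changed direction under these alternatives. Cyp3a13, which was not called, was at -0.16 with its brightest probe alone, at -0.48 with spike-in scaling and at 0.39 as reported. Dim signals limit the values of Cyp27a1, Cyp2j9 and the genes seen on 1 array alone. No paired analysis was possible because each group has 1 array.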
